A study of Mus musculus with 7 samples.

Results

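A set of 8 genes of the PI3K-AKT-mTOR pathway whose variants change brain size or cortical form, Pik3r2, Pik3ca, Tsc1, Tsc2, Rheb, Mtor, Depdc5 and Strada, was read out in mouse embryonic cortex after editing of Ccnd2. They were chosen by name, and all 8 were among the 25239 genes of the authors' deposited table. All 7 brains were C57BL/6J embryos with the genotype given as wildtype, electroporated in utero at E13.5 and collected at E15.5, that is 2 days later. The 3 edited brains, each from its own litter, had received Breasi-CRISPR reagents that replace threonine with alanine at Ccnd2 codon 280 (Thr280Ala). The 4 control brains had received a Breasi-CRISPR silent control, whose exact base change is not known here. They came from the same 3 litters, a pair of them from litter 1. Both groups therefore share the electroporation and the editing machinery. Electroporation reaches only part of the cells at the ventricle, and the share of edited cells in each sample is not known. Polyadenylated RNA of the transfected region was sequenced, and the authors' deposited table gives 1 comparison, edited against control, with no value per brain. For each gene it holds the mean normalized count over the brains, the log2 fold change and the standard error (SE) of that change, which follows the sign ± in the text, and p-values before and after adjustment over 14638 genes. By its name the table comes from a fit that included the litters. It holds each fold change with either sign in 2 columns and does not say which group is higher, so the direction used here, positive for higher in edited brains, was inferred from genes with a single read.

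The pathway carries growth signals from the cell surface to protein synthesis. PI3K makes the lipid PIP3 at the membrane, PIP3 brings AKT there to be activated, and AKT blocks the TSC complex, which otherwise keeps the small GTPase RHEB off. RHEB bound to GTP switches on the kinase complex mTORC1, while GATOR1 and the LKB1-STRAD-AMPK branch restrain it when amino acids or energy are scarce. In people, variants that raise the activity of this pathway during cortical development are known to cause megalencephaly, hemimegalencephaly or focal cortical dysplasia. PIK3R2 shares with CCND2 the syndrome of megalencephaly, polymicrogyria, polydactyly and hydrocephalus (MPPH). A known biochemical link runs through GSK3, which AKT inhibits and which phosphorylates D-type cyclins at a C-terminal threonine, marking them for degradation. In cyclin D2 that residue is threonine 280, the residue that the edit replaces.

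The edited codon is shown because it is a point at which this pathway is known to act on cyclin D2. It is also the only difference that the labels name between the groups. The codon is ACC in the GENCODE M21 reference transcript, on the minus strand at chr6:127130365-127130367 of GRCm38 (mm10), within the coding part of exon 5 of 5. Codons 273 to 288 of the 289 in the reference coding sequence are given 5′ to 3′ on the coding strand, with codon 280 in capitals.
Ccnd2, codons 273 to 288: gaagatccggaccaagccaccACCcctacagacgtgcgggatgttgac

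None of the 8 genes passed the test in the authors' deposited table. At an adjusted p below 0.05, 0 of 8 were called by DESeq2, where 36 of 14638 tested genes (0.246%) were. Of those 36, 9 (0.0615% of tested genes) were higher and 27 (0.184%) lower in the edited brains. At an unadjusted p below 0.05, 0 of 8 passed, where 858 of all tested genes (5.86%) did. The log2 fold changes of the 8 lay between -0.078 for Rheb and 0.050 for Tsc2 in the authors' deposited table, 5 above and 3 below 0, and their median was 0.015. Over all tested genes, 7027 (48.0%) were above 0 and the median was -0.0064. Among tested genes within 2-fold of the same abundance, the median was 0.0045 for Strada and 0.019 to 0.022 for the others of the 8. Every one of the 8 changes was smaller than its own SE, which held for 69.0% of all tested genes. A p-value that misses the threshold does not show that a gene stayed the same, so the 95% interval of each change is given with it. In each of the 8 genes that interval excluded a 1.5-fold change in either direction in the RNA of the whole sample. The share of edited cells is not known, so these intervals do not bound the change within edited cells.

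**Figure D1:**
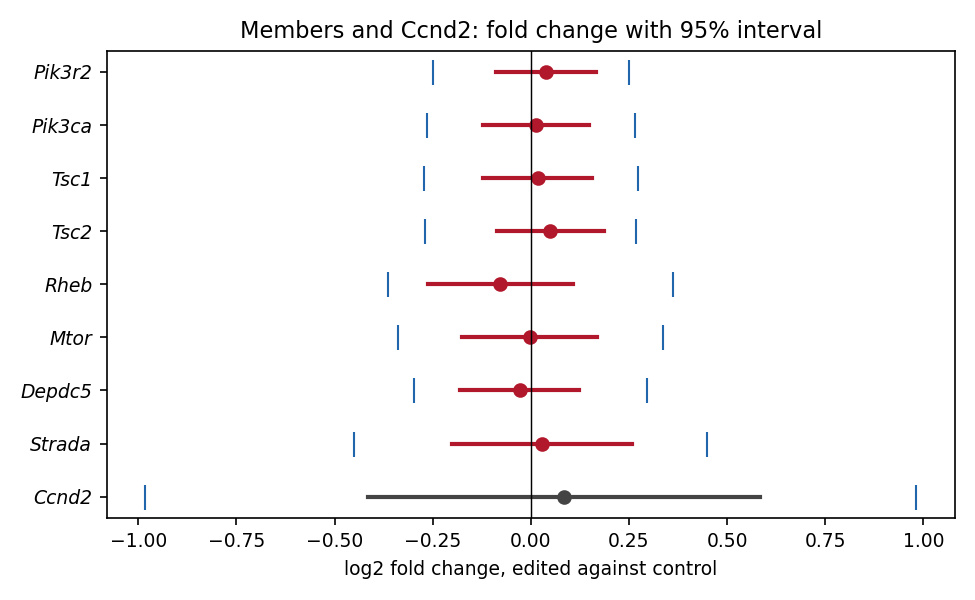
Log2 fold change (edited against control, x axis) of the 8 pathway genes (red) and of Ccnd2 (dark grey) in the authors' deposited table. Points are the deposited values, horizontal bars their 95% intervals, and blue ticks the size of measured change that would have been called at each gene's SE. The 8 points lie between -0.078 and 0.050, and each interval crosses 0 and stays inside its ticks.

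Ccnd2 RNA itself averaged 27810 normalized counts, and the authors' deposited table puts its log2 fold change at 0.084 ± 0.25 (adjusted p = 0.999). It is the gene targeted by the edit, but total RNA does not separate edited from unedited transcripts, so this value does not check the labels. The interval ran from -25.0% to 49.9%, wider than that of any of the 8 pathway genes. Set against the 165 tested genes within 2-fold of its abundance, Ccnd2 had 3.65 times their median SE, and 0 of them had a higher one.

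Among the PI3K genes, Pik3r2 encodes a regulatory subunit that binds and stabilizes the catalytic subunit and holds it inactive until a receptor signals. Its mean of 4831 normalized counts was the highest of the 8. The authors' deposited table gives it a log2 fold change of 0.040 ± 0.065 (p = 0.540, adjusted p = 0.999). The interval computed from these values reached from -5.89% to 12.3%, and the SE was the smallest of the 8. Pik3ca encodes p110 alpha, a catalytic subunit that is activated in mosaic overgrowth with megalencephaly. It averaged 3176 normalized counts and was put at 0.013 ± 0.069 (p = 0.851) by the authors' deposited table, with an interval from -8.08% to 10.7%. Neither gene of this pair, 1 regulatory and 1 catalytic, showed a change beyond its error.

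The other PI3K subunits included larger values, none of them called. Of 9 class I subunit genes, 4 were above and 5 below 0, the median log2 fold change was -0.059, and 0 were called. The direction of that median turned with the filter on low values: it was 0.026 once genes below a mean count of 100 were left out. The -0.059 is the value of Pik3r5, a gene with a mean of 16.6 and an SE of 0.67 by the authors' deposited table. Pik3r3, a further regulatory subunit and the most abundant of the list, was put at 0.093 ± 0.068 and Pik3r1 at -0.080 ± 0.14 by the authors' deposited table. For the catalytic subunit gene Pik3cb the authors' deposited table has 0.073 ± 0.10, and for Pik3cd -0.22 ± 0.11 (unadjusted p = 0.0401, adjusted p = 0.800). Pik3cd encodes p110 delta, which is known mainly from leukocytes. All 8 markers of microglia had values below 0 in the same comparison, with a median of -0.64 and a range of -1.03 to -0.39. Of them, 0 were called by DESeq2 and 5 had an unadjusted p below 0.05. Their part in the value of Pik3cd was not tested.

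The TSC complex and its target RHEB form the switch just before mTORC1. Tsc1 encodes hamartin, which stabilizes the complex, and Tsc2 encodes tuberin, the subunit that makes RHEB hydrolyse its GTP. With a mean of 2590 normalized counts, Tsc1 has a log2 fold change of 0.017 ± 0.071 (p = 0.807) in the authors' deposited table and an interval from -8.07% to 11.4%. With a mean of 3538, Tsc2 has 0.050 ± 0.070 (p = 0.476) in the authors' deposited table and an interval from -5.86% to 13.8%. Both partners of the complex thus lay within 1 SE of no change. Rheb, at a mean of 2125, had the largest change of the 8, put at -0.078 ± 0.094 (p = 0.410) by the authors' deposited table, with an interval from -16.6% to 7.70%. The sign of Rheb was opposite to that of Tsc1 and Tsc2, whose products inhibit it, but each of the 3 values was smaller than its SE. Tbc1d7, the other subunit of the complex, was put at -0.0029 ± 0.11 by the authors' deposited table. Rhebl1, the close relative of Rheb, had a mean of 139 normalized counts and -0.094 ± 0.24 in the authors' deposited table.

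Exons of Tsc2 overlap those of Pkd1, the polycystin gene on the opposite strand, by 693 bases, 7.20% of the exon bases of Tsc2 in GENCODE M21. Whether the counting used strand is not known, so reads in that stretch cannot be assigned with certainty. Pkd1 was put at -0.16 ± 0.13 (adjusted p = 0.999) by the authors' deposited table. For Strada, 144 exon bases (2.59%) are shared with the small nuclear RNA gene Gm25556 and 158 (2.84%) with Ccdc47, a same-strand neighbour that the authors' deposited table has at 0.064 ± 0.079. Pik3r2 shares 45 exon bases with an unclassified transcript, and for Pik3ca, Tsc1, Rheb, Mtor and Depdc5 no shared exon base was found.

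Mtor encodes the kinase of both mTOR complexes, and gain-of-function variants of it are found in hemimegalencephaly and focal cortical dysplasia. It averaged 2077 normalized counts, and its log2 fold change of -0.0031 ± 0.088 (p = 0.972) in the authors' deposited table was the closest to 0 of the 8. The interval reached from -11.4% to 12.4%. Of 12 genes of the mTOR complexes, 6 were above and 6 below 0, with a median of 0.0037 and 0 called. Rptor, which brings substrates to mTORC1, was put at 0.052 ± 0.080 by the authors' deposited table. Rictor, the corresponding subunit of mTORC2, has -0.041 ± 0.13 and Mapkap1, another mTORC2 subunit, -0.013 ± 0.073 in the authors' deposited table. The lowest values were those of Deptor, an inhibitory subunit with a mean of 28.6 normalized counts, at -0.74 ± 0.63, and of the mTORC2 subunit gene Prr5, at -0.34 ± 0.24, by the authors' deposited table. The smallest p in the list of mTOR complexes was that of Tti1, a cochaperone in the assembly of such kinases, at 0.15 ± 0.10 (p = 0.143) in the authors' deposited table.

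Depdc5 and Strada belong to the branches that restrain mTORC1. Depdc5 encodes a subunit of GATOR1, which turns off the RAG GTPases when amino acids are low, and loss of DEPDC5 causes focal epilepsy with or without cortical dysplasia. At a mean of 1796 normalized counts it was put at -0.028 ± 0.077 (p = 0.714) by the authors' deposited table, with an interval from -11.7% to 8.88%. For the other GATOR1 subunit genes, Nprl2 and Nprl3, the authors' deposited table has 0.030 ± 0.12 and 0.12 ± 0.13. Strada encodes a pseudokinase that activates the kinase LKB1, and loss of STRADA causes megalencephaly with epilepsy in people. At 747 normalized counts it was the least abundant of the 8, and the authors' deposited table puts it at 0.028 ± 0.12 (p = 0.810), the largest SE among them. The interval, from -0.20 to 0.26 on the log2 scale, was the widest of the 8. Stk11, which encodes LKB1, and Cab39, the scaffold of the same complex, were put at 0.085 ± 0.082 and 0.010 ± 0.069 by the authors' deposited table, and the paralog Stradb at -0.043 ± 0.099.

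**Figure D2:**
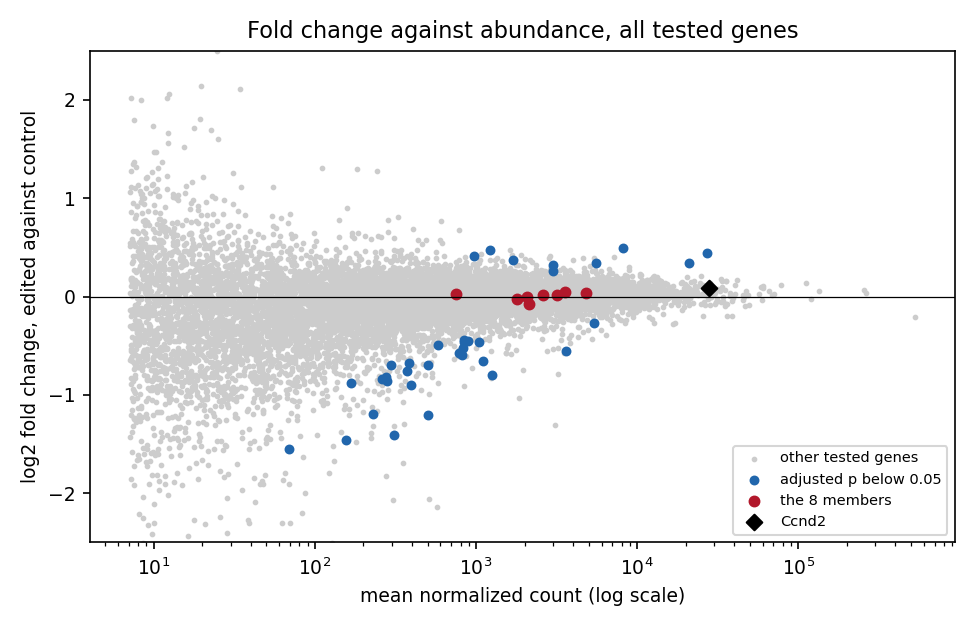
Log2 fold change (y axis, edited against control) against mean normalized count (x axis, log scale) for tested genes of the authors' deposited table, with called genes in blue, the 8 pathway genes in red and Ccnd2 as a black diamond. The y axis stops at 2.5 in both directions, which leaves out 41 genes, 1 of them called. The 8 genes sit close to the zero line at means of 747 to 4831.

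Set per length, the levels of the 8 genes spanned a wide range. Pik3r2 had 1157 mean normalized counts per kilobase of annotated exon, above 93.5% of the 14347 tested genes with a known exon length. Tsc2 followed with 368 and Pik3ca with 349 counts per kilobase. Rheb had 275, Tsc1 219 and Mtor 205 on the same scale. Depdc5 and Strada were the lowest per length, at 153 and 134 counts per kilobase, and still above 54.3% and 51.2% of tested genes. The highest level per kilobase was 8.62 times the lowest. The authors' deposited table gives no spread of a level over brains, so whether neighbours in this order differ was not tested. Exon length counts every annotated exon base once, and the isoforms used in this tissue are not known, so these levels are approximate.

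The precision of the 8 genes sets how large a measured change had to be for a call. Calls in the authors' deposited table began at a Wald statistic (fold change over SE) of about 3.85 in size. For Pik3r2 a measured rise of 18.9% or a measured fall of 15.9% would have reached this limit. For Strada it would have taken a measured rise of 36.6% or a measured fall of 26.8%, and the other 6 genes lay between. A true change of such a size could still be missed, since its measured value varies by the SE. The smallest change called for any gene in the authors' deposited table was 0.26 on the log2 scale, next to limits of 0.25 for Pik3r2, 0.26 for Pik3ca and 0.27 for Tsc1 and Tsc2. In 7 of the 8 genes the SE was below the median of tested genes within 2-fold of the same abundance, and Rheb was the exception at 1.03 times that median. The SEs correspond to a fitted spread between brains of a litter, as a coefficient of variation, of about 5.63% for Pik3r2, 8.14% for Rheb and 9.78% for Strada, against 22.8% for Ccnd2. DESeq2 by default draws the spread of single genes toward that of genes of like abundance, so the raw spread over the 7 brains may differ. The size of the change was also below the median of genes of like abundance in 7 of the 8. Rheb was again the exception, with a change larger than that of 58.4% of 4001 such genes.

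**Figure D3:**
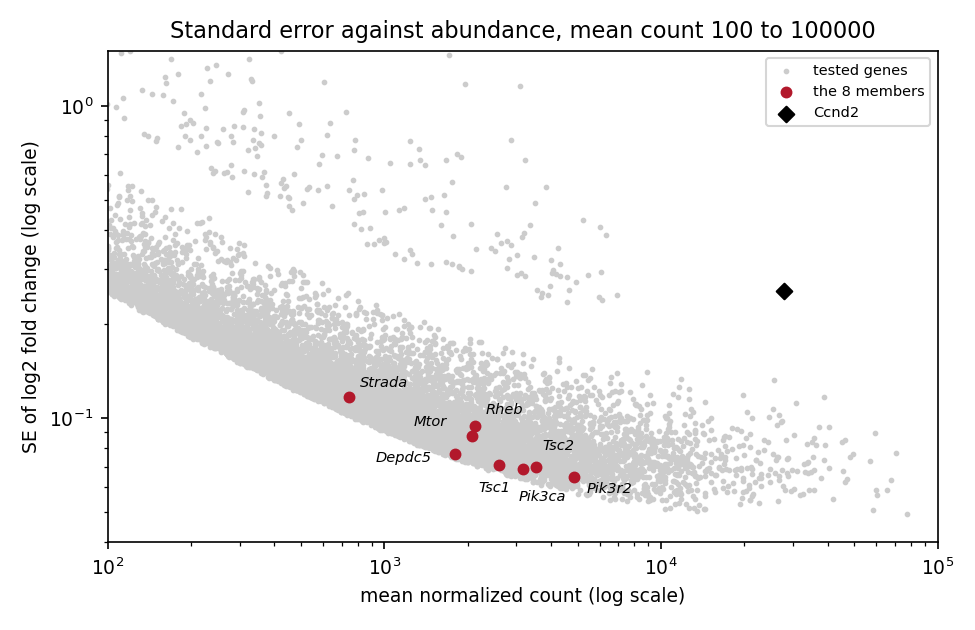
SE of the log2 fold change (y axis, log scale) against mean normalized count (x axis, log scale) in the authors' deposited table, with tested genes in grey. The 8 pathway genes (red, named) have SEs of 0.065 to 0.12 and lie in the main band, and Ccnd2 (black diamond) lies above it at 0.25.

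The rest of the machinery was described from 9 lists of pathway genes. Leaving out the 8, these lists held 78 genes, of which 76 were found in the authors' deposited table and 74 were tested. Of these 74, 0 were called by DESeq2 and 3 (4.05%) had an unadjusted p below 0.05, all lower, where 5.86% of all tested genes had such a p. Of the 74, 33 (44.6%) lay above and 41 below 0, where 48.0% of all tested genes lay above, and the median log2 fold change was -0.011. The 3 genes were Pik3cd and a pair of phosphoinositide 4-phosphatase genes. Inpp4a was put at -0.20 ± 0.098 (p = 0.0414) and Inpp4b at -0.63 ± 0.31 (p = 0.0422) by the authors' deposited table. Inpp5f, the most abundant phosphatase gene of its list, has -0.14 ± 0.11 in the authors' deposited table. Akt2, 1 of the AKT kinases, was put at 0.12 ± 0.064 (p = 0.0562) by the authors' deposited table.

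Lists for nutrient sensing leaned to either side. For the RAG GTPases, Ragulator and folliculin, which anchor mTORC1 at the lysosome, 2 of 13 were above and 11 below 0, the median was -0.052 and 0 were called. Lamtor4 was put at -0.21 ± 0.14 and Rraga at -0.076 ± 0.075 by the authors' deposited table. Of 10 tested genes of GATOR2 and the amino acid sensors, 8 were above 0, the median was 0.037 and 0 were called. For Castor2 the authors' deposited table has 0.031 ± 0.086, and for the arginine sensor gene Castor1, at a mean of only 19.9 normalized counts, -1.06 ± 0.62. The AMPK subunit gene Prkag2 has -0.13 ± 0.10 in the authors' deposited table.

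Genes on the output side of the pathway gave 10 unadjusted p-values below 0.05, again with no call. The 6 lists of substrates and target genes held 82 tested genes, of which 0 were called by DESeq2. The 10 (12.2%, against 5.86% of all tested genes) were 7 higher and 3 lower. Of the 82, 53 (64.6%) were above 0, where 48.0% of all tested genes were, and the median log2 fold change was 0.048. All tested genes are not matched to these lists in abundance. Genes of like abundance to the 8 pathway genes had medians of 0.0045 to 0.022, against -0.0064 for all tested genes. No such background was computed for the 82, so the part of abundance in these shares was not tested. Among 9 AKT substrates, 7 were above 0, with a median of 0.10. Foxo6, a forkhead factor of developing neurons, was put at 0.21 ± 0.061 (p = 0.00052, adjusted p = 0.116) by the authors' deposited table. Gsk3b, the gene of a kinase that marks D-type cyclins for degradation, was put at 0.11 ± 0.051 (p = 0.0287, adjusted p = 0.730) by the authors' deposited table. Of 16 mTORC1 substrates and effectors, 11 were above 0, with a median of 0.052. Pdcd4, an inhibitor of translation initiation whose protein is degraded after S6 kinase acts on it, was put at 0.24 ± 0.083 (p = 0.0041, adjusted p = 0.345) by the authors' deposited table. Eif4b, a translation initiation factor and S6 kinase substrate, has 0.10 ± 0.057 in the authors' deposited table.

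Target genes of transcription factors under mTORC1 and AKT can respond to the activity of the pathway at the RNA level. That activity was not measured here, and its part in the values of these lists was not tested. Of 12 ATF4 target genes, which mTORC1 is known to raise, 10 were above 0 and the median was 0.17, with 3 at an unadjusted p below 0.05 and 0 called by DESeq2. Shmt2, a mitochondrial enzyme of serine and one-carbon metabolism, was put at 0.29 ± 0.093 (p = 0.00196, adjusted p = 0.234) by the authors' deposited table. Psat1, an enzyme of serine synthesis, was put at 0.25 ± 0.11 (p = 0.0211, adjusted p = 0.673) by the authors' deposited table. For Aldh18a1, an enzyme of proline synthesis, the authors' deposited table has 0.21 ± 0.079 (p = 0.0087, adjusted p = 0.483). Other genes of this list lay near or below 0. The 2 below 0 were Asns, at -0.077 ± 0.11, and Slc7a11, at -0.95 ± 0.86. Phgdh, Slc7a5 and Slc3a2 were above 0 by less than their SE, at 0.028 ± 0.096, 0.030 ± 0.078 and 0.0081 ± 0.079. Of 14 SREBP genes and their targets in lipid synthesis, 10 were above 0, with a median of 0.053. Scd2 and Scd1, fatty acid desaturases, lay on opposite sides, at 0.16 ± 0.059 and -0.25 ± 0.13 by the authors' deposited table.

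The remaining lists hold genes that the pathway is known to lower. Of 15 FOXO target genes, which AKT represses through FOXO, 10 were above 0, with a median of 0.064. Its 2 members with an unadjusted p below 0.05 were Klf6 and Bcl6, at -0.36 ± 0.14 and -0.39 ± 0.15 by the authors' deposited table. The CDK inhibitor gene Cdkn1b has 0.084 ± 0.076 in the authors' deposited table. Of 16 lysosomal TFEB target genes, which mTORC1 holds down, 11 were below 0, with a median of -0.069 and 0 at an unadjusted p below 0.05. Ctsb, a lysosomal protease gene, was put at -0.18 ± 0.11 (adjusted p = 0.948) by the authors' deposited table.

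**Figure D4:**
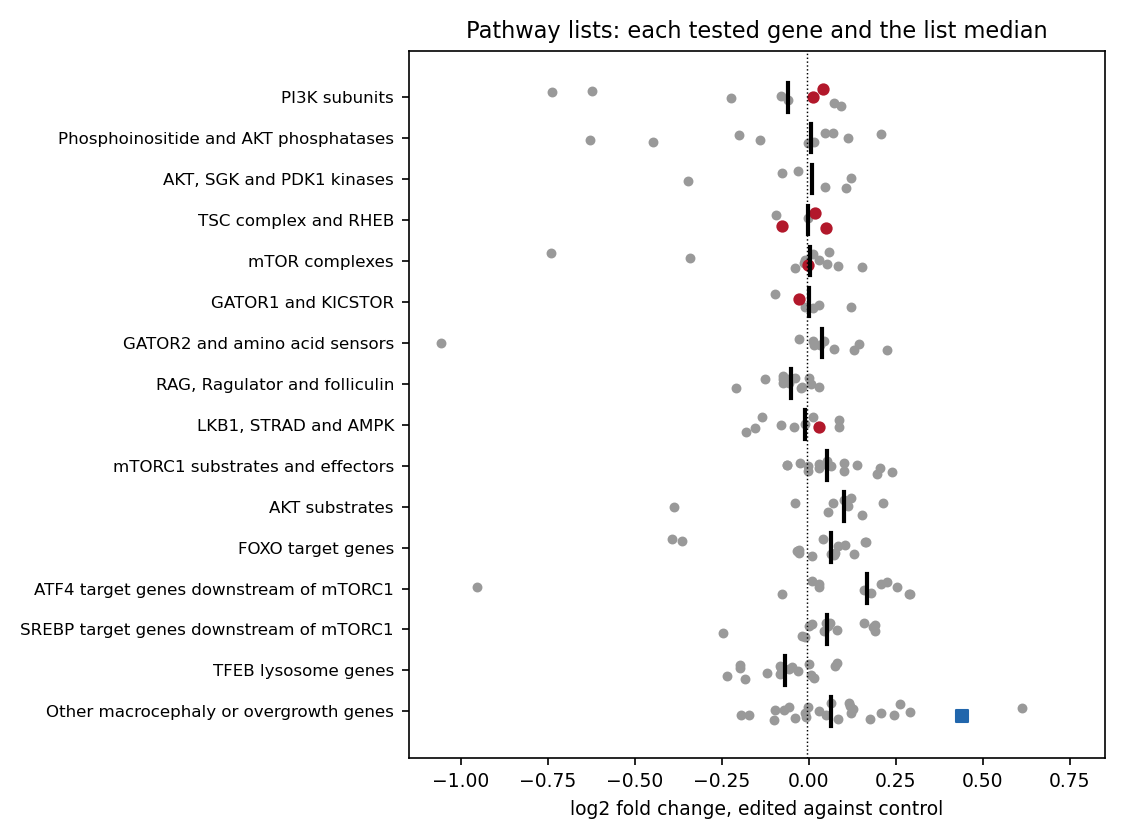
Log2 fold change (x axis, edited against control, authors' deposited table) of each tested gene in 16 lists, 1 list per line, with the list median as a black bar and the median of all tested genes, -0.0064, as a dotted line. The 8 pathway genes are red, the 1 called gene, Nfix, is a blue square, and points are spread vertically only for legibility. The list medians run from -0.069 for lysosomal genes to 0.17 for ATF4 targets.

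Markers of cell types are given for the same comparison, and their part in these list medians was not tested. Of 53 tested marker genes, 0 were called by DESeq2 in the authors' deposited table, and 15 (28.3%) had an unadjusted p below 0.05, where 5.86% of all tested genes did. Intermediate progenitors, which divide away from the ventricle, had 6 of 6 markers above 0 and a median log2 fold change of 0.20. Apical radial glia had 6 of 8 above 0 and a median of 0.16, and cortical projection neurons 2 of 8 and -0.048. Endothelium had 0 of 6 markers above 0 and a median of -0.32, and meninges and fibroblasts 2 of 6 and -0.51. Choroid plexus had 4 of 4 tested markers above 0 and a median of 3.68, and GABAergic interneurons 5 of 6 and 0.21. Of those 4, 3 had an unadjusted p below 0.05. Kl, the other choroid plexus marker, had no adjusted p and lay at -1.53 ± 1.12. Errors of single markers were wide in these lists. The SE ran from 1.09 to 3.63 for the tested choroid plexus markers. It ran from 0.77 to 2.16 for meninges and fibroblasts, and from 0.14 to 0.77 for interneurons. Of 5 erythroid genes, 4 were listed at 0 and the other had -0.23. The sum of mean normalized counts was 203558 for the markers of projection neurons and 53244 for those of radial glia, main cell classes of the labelled cortex, and 2662 for those of microglia. In bulk tissue, fewer cells of a type and less RNA per cell cannot be told apart.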

How the data were processed

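The submitters' processing notes name mm10, cutadapt, featureCounts and DESeq2, with no version or setting. Aligner, annotation and strand use are not stated. Every value comes from a single comparison deposited by the authors. Its mean normalized count is a signal that the authors made by dividing counts by size factors and averaging the 7 libraries. Fold changes and SEs are on the log2 scale, as deposited. Wald statistics are a score, per the file headers. Within 1.23e-07 they equal the fold change over its SE, taken from the column of opposite sign to that used here. P-values, raw and adjusted, are those the authors deposited. A recomputed Benjamini-Hochberg adjustment differed by at most 4.01e-05. An adjusted p exists from a mean of 7.08 upward.

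The deposited table holds fold changes in 2 columns of opposite sign and states no direction, and by its name the fit included litters. Direction was inferred from 694 genes with a single read. Their values form 7 classes, 3 positive and 4 negative, as 3 edited and 4 control libraries would give. From the class means and the summed mean counts, reads counted in the listed genes were estimated at 19400000 to 32800000 per library. Reads not assigned to these genes are left out. Brains are separate embryos, so p-values cover the spread between embryos.

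Computed here (Python 3.11.15, SciPy 1.17.1) were 95% normal intervals, callable sizes, ranks among genes within 2-fold of a mean, counts per kilobase (GENCODE M21) and list counts. The fitted spread was solved from each SE by a negative binomial formula with litter terms, equal means and 36 possible litter assignments. Calculations were tested on simulated data. No counts per library were given, so no model was refitted.

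The 8 genes and the lists were chosen with earlier results of these data known. Also named are Ccnd2, complex partners, called list genes and each list's genes with the smallest p and the highest mean, of which 2 are not reported here. Pik3r5, Deptor, Prr5, Inpp4b, Aldh18a1, Scd1, Bcl6, Suz12, Gli3, Brwd3 and genes sharing exons with the 8 were named after their values were seen. The same holds for Asns, Slc7a11, Phgdh, Slc7a5, Slc3a2 and Kl.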

Additional observations from a re-analysis of the deposited data

How the results depend on the processing

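Alternatives were adjustment over all 18976 genes with a p-value, a mean of at least 100 normalized counts, an adjusted p below 0.1, and centring. Of 124 comparisons with an alternative, 119 kept their direction and either their side of the threshold or a value within 1 SE. Part of these 119 could not have changed. Adjusting over other genes leaves a log2 fold change as it is, and adding untested genes with a p-value left the list medians unchanged. The 119 is therefore not a measure of robustness. The count of called members was 0 of 8 under each of the 4 alternatives run for it, while the count over all genes ran from 31 to 57. The other 5 turned the sign of a value, with 0 calls gained. With a mean of at least 100, the median of the PI3K subunits moved from -0.059 to 0.026, as 3 scarce subunit genes with values below 0 left the list. Centred on the median of tested genes, Mtor moved from -0.0031 to 0.0033 and the median of the TSC complex and RHEB from -0.0029 to 0.0035. Centred on genes of like abundance, Pik3ca moved to -0.0088 and Tsc1 to -0.0045, since the subtracted medians of 0.022 exceeded their deposited values. No paired analysis was possible because the table has no values per library; by its name the deposited fit already included litters, and a fit without them could not be set beside it. For the same reason no brain could be left out, so whether 1 brain decides a value is not known.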

Other observations

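Other genes whose variants cause macrocephaly or overgrowth in people were looked at beside the 8, in a list of 25 that were all tested. Of the 25, 1 was called by DESeq2 and rose, 15 were above and 10 below 0, and their median log2 fold change was 0.063. The called gene was Nfix, a nuclear factor I transcription factor and the gene of a human overgrowth syndrome, which averaged 27210 normalized counts and was put at 0.44 ± 0.097 (SE, adjusted p = 0.0072) by the authors' deposited table. Suz12, a Polycomb subunit, was put at 0.29 ± 0.079 (SE, unadjusted p = 0.00022, adjusted p = 0.0673) by the authors' deposited table. Brwd3 and Gli3, the other genes with an unadjusted p below 0.05, have 0.26 ± 0.11 and 0.25 ± 0.10 (SE) in the authors' deposited table. The list was drawn up with the call of Nfix already known, so its count is a description.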
